A study of Mus musculus with 6 samples.

Results

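Organic anion and cation transporters, the products of the Slco and Slc22a genes, were described in the liver of laboratory and wild-caught mice. Every gene name that begins with Slco or Slc22a followed by a digit was taken where it was listed once in the data of every mouse, and names ending in -ps were left out. The 39 genes reported here, 15 of them Slco and 24 Slc22a, are of 47232 gene names with an estimate in all mice. RefSeq annotates 37 of the 39 as protein-coding, Slc22a13b as a transcribed pseudogene and Slco6b1 as a long non-coding RNA. Livers of 6 mice were measured once each by RNA-Seq. Laboratory mice 1 to 3 were C57BL/6 males of 17 to 18 weeks from Australian BioResources. Wild mouse 1 was a male and wild mice 2 and 3 were females, all adults of no stated strain or exact age that were trapped alive and kept for 3 months in captivity, wild mice 1 and 2 from one site and wild mouse 3 from another. No treatment separated the groups, and every liver was unfixed and frozen. Strain, rearing, sex and the time at which the livers were collected and frozen all differ between the groups. With 1 wild male their parts cannot be told apart. The p-values rest on these 6 mice only.

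Organic anion-transporting polypeptides, encoded by Slco genes, carry bile acids, bilirubin, thyroid and steroid hormones and many drugs into cells without using ATP. Slc22a genes encode the organic cation transporters, the carnitine transporters and the organic anion transporters of the same wider superfamily. In hepatocytes these proteins sit mainly on the blood-facing membrane and work ahead of the enzymes and export pumps that clear drugs and bile acids, and several are known in rodents to differ between male and female liver. Expression is given as FPKM, the sequenced fragments of a gene scaled by transcript length and library size, which corrects for transcript length and so allows levels of different genes to be compared. The zFPKM is the log2 FPKM of a gene, centred and scaled within each mouse on the main peak of expressed genes. Differences in zFPKM were tested with limma over 18619 genes that exceeded a zFPKM of -3 in at least 3 mice, and a gene was called at a Benjamini-Hochberg adjusted p under 0.05.

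Of the 39 transporters, 27 were tested and 17 had a mean of at least 1 FPKM in either group. The sum over all 39 was 275, 281 and 343 FPKM in laboratory mice 1 to 3 and 767, 705 and 774 FPKM in wild mice 1 to 3. Every wild mouse therefore stood above every laboratory mouse in summed FPKM. In bulk liver, fewer cells of a type and less RNA per cell cannot be told apart. The liver identity of the samples was checked by 5 hepatocyte marker genes, with a summed FPKM of 27336 to 37832 in the laboratory and 22301 to 23598 in the wild group. The markers did not move together: Ttr (10763 to 16515 and 7137 to 8476 FPKM) and Apoa1 (15320 to 19565 and 7721 to 8583 FPKM), which carry the sum, were higher in every laboratory mouse, while Tat (56.96 to 148 and 521 to 975 FPKM), Ass1 (864 to 1254 and 2696 to 3381 FPKM) and Cyp2e1 (242 to 519 and 3229 to 3650 FPKM) were higher in every wild mouse. Summed markers of stellate cells, the fat-storing pericytes of liver, were 17.2 to 20.7 FPKM in laboratory and 24.7 to 54.6 FPKM in wild mice. The stellate sum was mostly Colec11, at 13.7 to 15.1 and 16.6 to 39.7 FPKM. Colec11, Lrat and Reln were higher in every wild mouse, while Des overlapped (1.69 to 2.40 and 1.25 to 1.79 FPKM). Summed markers of biliary epithelium were 29.7 to 64.6 and 12.2 to 27.6 FPKM. The biliary sum was mostly Spp1, at 25.9 to 55.0 and 10.6 to 23.0 FPKM. Spp1 and Krt19 were higher in every laboratory mouse, while Krt7, Epcam and Sox9 overlapped between groups. The part of these marker differences in the transporter differences was not tested.

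The promoters below belong to the transporters on which the results turn and are taken from RefSeq on GRCm38.p6, 250 bases before to 50 bases after the annotated start, written 5′ to 3′ on the strand of the gene. Slco1b2 is shown as the gene of the 39 with the highest mean FPKM in wild liver. Slc22a26, Slc22a27 and Slc22a29 are shown as genes of a row on chromosome 19 with wide ranges between mice. Capitals mark the letters TTCNNNGAA, the palindrome known for STAT factors, which reads the same on both strands.
Slco1b2: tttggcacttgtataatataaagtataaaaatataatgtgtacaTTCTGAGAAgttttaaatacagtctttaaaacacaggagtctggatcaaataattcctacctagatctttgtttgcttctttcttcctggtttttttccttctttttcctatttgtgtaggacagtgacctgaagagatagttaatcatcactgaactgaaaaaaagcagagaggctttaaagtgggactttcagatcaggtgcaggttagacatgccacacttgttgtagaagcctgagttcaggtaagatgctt
Slc22a26: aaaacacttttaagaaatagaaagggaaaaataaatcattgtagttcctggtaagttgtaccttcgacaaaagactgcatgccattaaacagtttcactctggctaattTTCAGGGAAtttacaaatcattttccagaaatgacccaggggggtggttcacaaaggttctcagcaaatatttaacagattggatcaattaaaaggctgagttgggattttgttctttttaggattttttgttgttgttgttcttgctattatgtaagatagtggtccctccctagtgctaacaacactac
Slc22a27: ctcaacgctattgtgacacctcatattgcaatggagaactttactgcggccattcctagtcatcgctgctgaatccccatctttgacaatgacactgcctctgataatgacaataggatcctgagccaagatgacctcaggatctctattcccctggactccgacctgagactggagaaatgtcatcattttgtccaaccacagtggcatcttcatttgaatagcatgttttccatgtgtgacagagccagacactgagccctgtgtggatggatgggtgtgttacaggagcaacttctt
Slc22a29: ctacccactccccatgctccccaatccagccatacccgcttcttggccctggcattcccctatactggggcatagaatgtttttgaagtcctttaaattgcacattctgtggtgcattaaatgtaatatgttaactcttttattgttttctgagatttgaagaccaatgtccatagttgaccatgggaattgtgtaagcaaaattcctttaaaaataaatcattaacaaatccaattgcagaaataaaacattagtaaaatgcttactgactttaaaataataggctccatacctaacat
These windows lie at chr6:141629268-141629567, strand + for Slco1b2, at chr19:7802618-7802917, strand - for Slc22a26, at chr19:7965978-7966277, strand - for Slc22a27 and at chr19:8218851-8219150, strand - for Slc22a29. The Slco1b2 window holds TTCNNNGAA from 206 bases and the Slc22a26 window from 141 bases before the start. The Slc22a27 and Slc22a29 windows do not hold it. Both lie inside the annotated spans of their genes, whose 5′ ends are at chr19:7966517 and chr19:8253375, the Slc22a29 window far inside. Promoters were found for 34 of the 39 genes in 39 windows. TTCNNNGAA was in 8 of those windows (20.5%) and in 8.30% of all 32851 RefSeq windows. The 8 windows belong to 7 genes. Slco1b2, Slc22a26 and Slco1a5 were called between laboratory and wild mice, and Slc22a15, Slc22a16, Slc22a19 and Slco2b1 were not. Slc22a16 was listed at 0 in every mouse. A match describes letters and does not show binding.

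Slc22a28 and Slc22a30, which flank Slc22a29 in the same gene row, are shown because their promoters are nearly the same while their FPKM values differed. The windows at chr19:8131933-8132232, strand - and chr19:8405056-8405355, strand - align with 288 identical bases of 300, and capitals mark the bases with no identical partner.
Slc22a28: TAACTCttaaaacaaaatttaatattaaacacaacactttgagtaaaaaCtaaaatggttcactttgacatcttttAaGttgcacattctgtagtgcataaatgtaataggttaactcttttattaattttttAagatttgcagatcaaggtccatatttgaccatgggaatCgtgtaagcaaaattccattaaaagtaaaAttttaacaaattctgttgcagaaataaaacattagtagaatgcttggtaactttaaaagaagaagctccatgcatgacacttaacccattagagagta
Slc22a30: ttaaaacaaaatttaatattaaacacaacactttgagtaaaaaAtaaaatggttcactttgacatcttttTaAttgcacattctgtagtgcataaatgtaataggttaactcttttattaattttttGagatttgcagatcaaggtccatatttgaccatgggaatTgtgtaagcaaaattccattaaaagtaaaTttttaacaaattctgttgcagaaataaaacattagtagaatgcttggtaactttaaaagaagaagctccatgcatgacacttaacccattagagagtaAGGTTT
By the same alignment, the Slc22a29 window, which lies inside its gene, shared 225 identical bases with Slc22a28 and 224 with Slc22a30. Slc22a26 and Slc22a27 shared 175.

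In the comparison of laboratory with wild mice, 7 of the 27 tested transporters were lower in laboratory mice and 0 were higher by limma. At an unadjusted p under 0.05, 9 were lower (the 7 called, Slc22a28 and Slco2b1), against 13% of all tested genes, and 3 were higher (Slc22a13b, Slc22a17 and Slco1a1), against 12.7%. Of these, Slco1a1 was higher in zFPKM only, its mean being 35.3 FPKM in laboratory and 59.1 FPKM in wild mice. Over all 18619 tested genes, 7.28% were lower and 7.17% were higher in laboratory mice. The 7 were the organic anion-transporting polypeptides Slco1b2, Slco1a4 and Slco1a5, the organic cation transporter Slc22a2, and the organic anion transporters Slc22a26, Slc22a27 and Slc22a29. The median difference of the 27 was -0.26 zFPKM, laboratory minus wild, against 0.005 zFPKM over all tested genes. Below, single differences are given as wild minus laboratory.

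**Figure D1:**
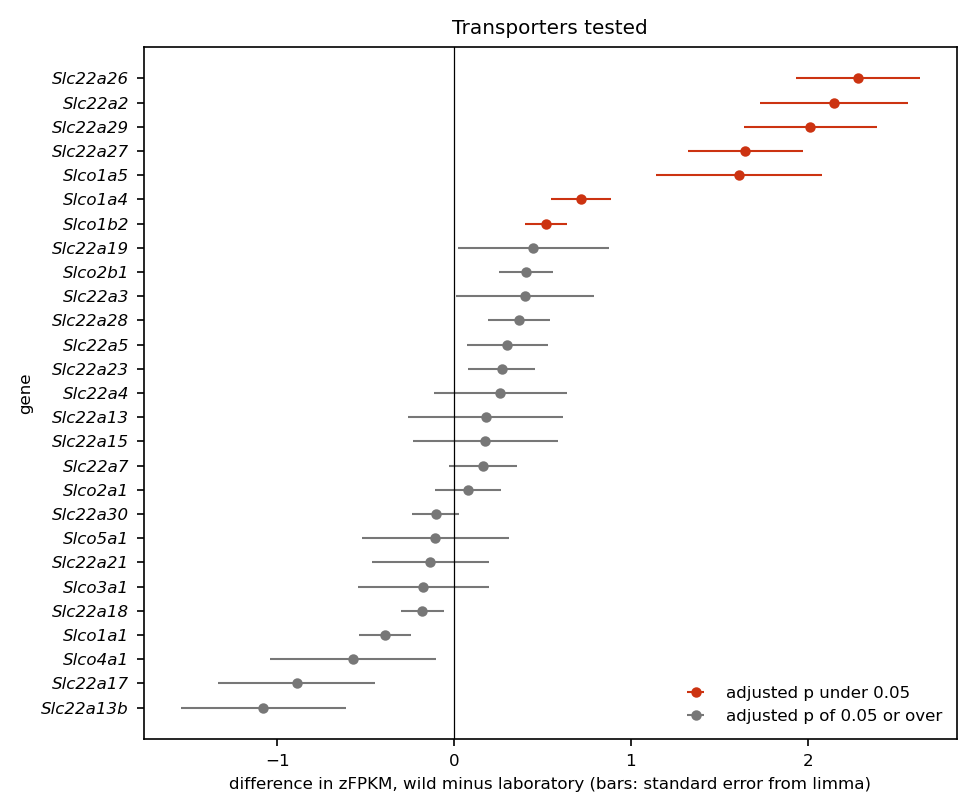
Difference in zFPKM, wild minus laboratory, of each of the 27 tested transporters (n = 3 mice per group), with the standard error from limma as bars. The 7 genes called at an adjusted p under 0.05 all lie to the right of 0, from 0.52 for Slco1b2 to 2.28 for Slc22a26.

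The number of calls depended on the scale of the values. On log2(FPKM + 0.1), where the median of all tested genes was itself -0.47 in laboratory against wild mice, 15 transporters were lower in laboratory mice against 37.9% of all genes, and 0 were higher against 8.19%. After quantile normalization 12 were lower against 20.4% and 2, Slc22a17 and Slc22a18, were higher against 18.7%. In limma without a variance trend 3 were lower (Slc22a2, Slc22a29 and Slco1a5) against 1.89%, and 0 were higher against 2.38%. With sex as a covariate, which sets the 3 laboratory males against the 1 wild male, 2 were lower (Slc22a2 and Slco1b2) against 1.34% and 0 were higher against 6.04%. With the trend, the spread of a gene was taken wholly from genes of like expression. In the main comparison of laboratory with wild mice, a gene's own spread between mice had no weight in any p-value or standard error. Without wild mouse 3, 4 of the 7 were called, Slc22a27, Slco1a4 and Slco1a5 being lost, and with no filter on low values, over 47232 genes, 0 were called.

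Without any model, the FPKM of 17 of the 27 transporters was lower in every laboratory mouse than in every wild mouse, against 43.7% of all tested genes, and 0 were higher in every laboratory mouse, against 12.1%. In zFPKM, 9 were lower in every laboratory mouse, against 14.1% of all genes, and 3 were higher (Slc22a13b, Slc22a17 and Slco4a1), against 14.2%. The 17 and the 9 both include Slc22a19, which was listed at 0 in all laboratory mice. It passed the filter only through its wild values, so its separation was fixed in advance.

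**Figure D2:**
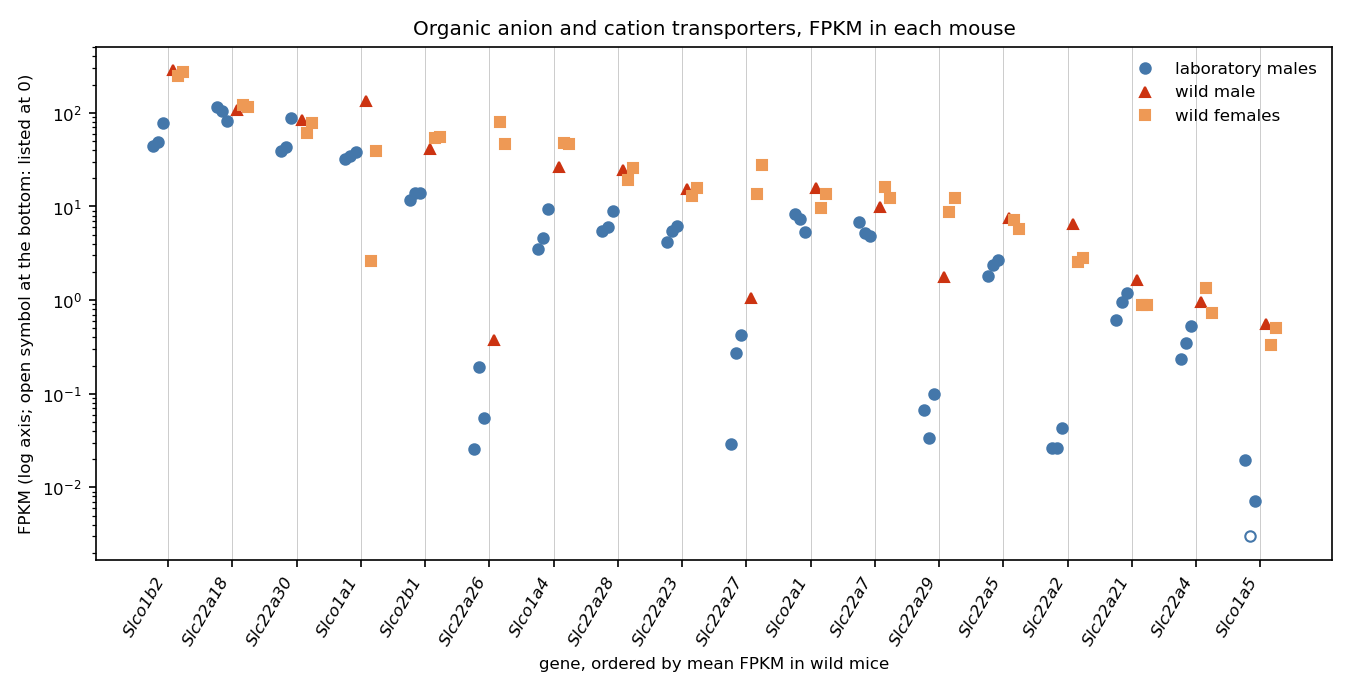
FPKM on a log axis of the 18 transporters with a mean of at least 1 FPKM in a group or a call, in each of 3 laboratory males (circles), 1 wild male (triangle) and 2 wild females (squares). Slc22a26, Slc22a27, Slc22a29, Slc22a2 and Slco1a5 lie below 1 FPKM in all laboratory mice, and the groups overlap for Slc22a18, Slc22a30, Slco1a1 and Slc22a21.

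Among the organic anion-transporting polypeptides, Slco1b2 and Slco1a4 were higher in all wild mice, male and females alike. Slco1b2, the mouse counterpart of human OATP1B1 and OATP1B3 and an uptake carrier for bile acids and bilirubin, lies at chr6:141629452-141686646. It measured 44.6, 48.5 and 78.7 FPKM in laboratory mice 1 to 3 and 285, 245 and 273 FPKM in wild mice 1 to 3. The groups did not overlap in FPKM, and the wild male and wild females lay close together. The means were 57.3 ± 18.7 and 268 ± 20.4 FPKM (SD, n = 3 each), a ratio of 4.67, and the difference was 0.52 ± 0.12 zFPKM, adjusted p = 0.000262. Slco1b2 was also one of the 2 transporters called between the laboratory males and the wild male. The call was lost with a median of 0 in each mouse (laboratory minus wild -0.49) and without a variance trend.

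Slco1a4, a carrier of bile acids, steroid conjugates and digoxin found in liver and at the blood-brain barrier, lies at chr6:141805438-141856284. It measured 3.53, 4.66 and 9.40 FPKM in laboratory mice 1 to 3 and 26.3, 47.1 and 46.5 FPKM in wild mice 1 to 3. The highest laboratory mouse stayed below the lowest wild mouse, which was the male. The ratio of the means was 6.82 and the difference was 0.72 ± 0.17 zFPKM, adjusted p = 0.000552. It was called in 11 of 15 alternative analyses. The call was lost without wild mouse 3, when laboratory minus wild was -0.64, without a variance trend and with no filter. Between the laboratory males and the wild male, laboratory minus wild was -0.37 ± 0.18 zFPKM.

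Slco1a5, known best from intestine, was at the lower edge of detection. It measured 0.0198, 0 and 0.00717 FPKM in laboratory mice 1 to 3 and 0.552, 0.330 and 0.500 FPKM in wild mice 1 to 3, and one laboratory mouse was thus listed at 0. All wild mice were above all laboratory mice, by 1.61 ± 0.47 zFPKM, adjusted p = 0.00734. The call was lost without laboratory mouse 2, laboratory mouse 3 or wild mouse 3, with laboratory minus wild differences of -1.44, -1.44 and -1.57. The values of laboratory mice 2 and 3 were set to the floor of -3 zFPKM, so the size of the difference depends on the floor, and with a floor of -5 laboratory minus wild was -2.50. The gene lies at chr6:142234227-142322981.

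Slco1a1, a carrier of sulphated and glucuronidated steroids known to be more abundant in male than female rodent liver, lies at chr6:141907281-141946962. It measured 32.4, 35.0 and 38.5 FPKM in laboratory mice 1 to 3 and 135, 2.65 and 39.5 FPKM in wild mice 1 to 3. The laboratory mice lay close together, the wild male stood above them all and the wild females were far apart from each other, one below and the other just above the laboratory mice. The difference between groups was -0.39 ± 0.15 zFPKM, adjusted p = 0.0528, which missed the threshold, and its sign turned when wild mouse 2 was left out (laboratory minus wild -0.08). The wild male held 6.41 times the mean of the wild females, and the difference of females minus male was -1.07 ± 0.34 zFPKM, adjusted p = 0.257.

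Slco2b1, the counterpart of OATP2B1, which takes up steroid sulphates and statins, and Slco2a1, the prostaglandin transporter, completed the polypeptides above 1 FPKM. Slco2b1 measured 11.6, 14.1 and 14.0 FPKM in laboratory mice 1 to 3 and 41.0, 54.2 and 54.9 FPKM in wild mice 1 to 3. Its groups did not overlap in FPKM, but the difference of 0.41 ± 0.15 zFPKM, adjusted p = 0.0510, lay just outside the threshold, and it was called in 5 of 15 alternative analyses, among them the one without wild mouse 1 (laboratory minus wild -0.53). Slco2a1 measured 8.32, 7.32 and 5.38 FPKM in laboratory mice 1 to 3 and 15.8, 9.62 and 13.7 FPKM in wild mice 1 to 3. The FPKM ranges did not overlap, and the difference was 0.08 ± 0.19 zFPKM, adjusted p = 0.846, whose sign turned without laboratory mouse 3 (laboratory minus wild 0.13). These genes lie at chr7:99657804-99711340 and chr9:103007061-103096002.

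Of the organic cation transporters, which take up metformin, thiamine and monoamines, Slc22a2 (OCT2) is known as the form of kidney tubules. At chr17:12584189-12628489, it measured 0.0266, 0.0266 and 0.0432 FPKM in laboratory mice 1 to 3 and 6.47, 2.56 and 2.80 FPKM in wild mice 1 to 3. It was barely present in the laboratory mice and was highest in the wild male. The difference was 2.15 ± 0.42 zFPKM, adjusted p = 1.07e-05, and it was called in 14 of 15 alternatives, including the comparison of males. Of the 2096 windows of 100 bases in its transcript, 51 also occur in another gene, so some reads could be shared. Of 6 kidney marker genes, 5 were listed at 0 in every mouse and the highest value of the other was 0.0631 FPKM.

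Slc22a3 (OCT3), a cation transporter beside it on chromosome 17, measured 0.171, 0.214 and 0.432 FPKM in laboratory mice 1 to 3 and 0.786, 0.887 and 1.13 FPKM in wild mice 1 to 3. No laboratory value reached the lowest wild value, yet the difference of 0.40 ± 0.39 zFPKM, adjusted p = 0.578, did not pass the test.

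None of the carnitine and zwitterion transporters was called. Slc22a5 (OCTN2), the carnitine carrier that fatty acid oxidation depends on, measured 1.81, 2.39 and 2.69 FPKM in laboratory mice 1 to 3 and 7.61, 7.10 and 5.73 FPKM in wild mice 1 to 3. The groups did not overlap in FPKM, and the difference was 0.30 ± 0.23 zFPKM, adjusted p = 0.445. Slc22a4 (OCTN1), the ergothioneine carrier, measured 0.237, 0.348 and 0.529 FPKM in laboratory mice 1 to 3 and 0.947, 1.36 and 0.724 FPKM in wild mice 1 to 3, again with no overlap in FPKM and a difference of 0.26 ± 0.38 zFPKM, adjusted p = 0.729. Slc22a21, a mouse carnitine carrier beside them on chromosome 11, measured 0.607, 0.958 and 1.19 FPKM in laboratory mice 1 to 3 and 1.64, 0.878 and 0.894 FPKM in wild mice 1 to 3. Its groups overlapped, and the difference was -0.13 ± 0.33 zFPKM, adjusted p = 0.854. Of its 100-base windows, 12.1% also occur in another gene, chiefly Slc22a5, so the values of this pair are uncertain.

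The organic anion transporters held both the widest and some of the narrowest differences. Slc22a26, one of a row of rodent anion transporter genes on chromosome 19, at chr19:7780094-7802667, measured 0.0256, 0.192 and 0.0557 FPKM in laboratory mice 1 to 3 and 0.378, 79.3 and 46.6 FPKM in wild mice 1 to 3. It was near 0 in the laboratory males and the wild male and high in both wild females. The difference between groups was 2.28 ± 0.35 zFPKM, adjusted p = 6.89e-09, and the call was lost without laboratory mouse 3 (laboratory minus wild -1.93) and on log2(FPKM + 1). The wild females held 167 times the FPKM of the wild male, a difference of 2.91 ± 0.51 zFPKM, adjusted p = 0.0247. The 1 wild male has no spread of its own and is assumed to vary like the other groups, and this call was lost without wild mouse 2 or wild mouse 3.

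Slc22a27, at chr19:7864388-7966517, had the same order of FPKM, laboratory males, wild male, wild females, while in zFPKM the wild male lay within the range of the laboratory males for both genes. It measured 0.0290, 0.271 and 0.419 FPKM in laboratory mice 1 to 3 and 1.05, 13.6 and 27.4 FPKM in wild mice 1 to 3, with both wild females far above the other mice. The group difference was 1.65 ± 0.33 zFPKM, adjusted p = 1.75e-05, which was not called without wild mouse 3 (laboratory minus wild -1.28), and that of wild females minus the wild male was 1.82 ± 0.41 zFPKM, adjusted p = 0.0929. Between the laboratory males and the wild male neither gene was called, with laboratory minus wild differences of -0.34 ± 0.48 zFPKM for Slc22a26 and -0.43 ± 0.38 zFPKM for Slc22a27.

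Slc22a29, at chr19:8160168-8253375, measured 0.0672, 0.0337 and 0.0995 FPKM in laboratory mice 1 to 3 and 1.79, 8.67 and 12.5 FPKM in wild mice 1 to 3. The wild male was 26.7 times the laboratory mean and the wild females stood higher again. The group difference was 2.02 ± 0.38 zFPKM, adjusted p = 3.82e-06, and the difference of wild females minus the wild male was 1.24 ± 0.43 zFPKM, adjusted p = 0.314. Slc22a29 and Slc22a27 share 8.43% and 7.65% of their 100-base windows with other genes, chiefly with each other.

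Slc22a28 and Slc22a30, the pair with nearly the same promoter, were present in every mouse. Slc22a28, at chr19:8061958-8131982, measured 5.53, 6.00 and 9.04 FPKM in laboratory mice 1 to 3 and 24.7, 19.2 and 25.8 FPKM in wild mice 1 to 3. The wild mice were all above the laboratory mice, males and females alike, and the difference was 0.37 ± 0.18 zFPKM, adjusted p = 0.159. Slc22a30, at chr19:8335371-8405111, measured 39.4, 43.1 and 87.3 FPKM in laboratory mice 1 to 3 and 82.9, 60.5 and 78.0 FPKM in wild mice 1 to 3. Its groups overlapped, since laboratory mouse 3 was the highest of all, and the difference was -0.11 ± 0.13 zFPKM, adjusted p = 0.682, whose sign turned on log2(FPKM + 0.1) and log2(FPKM + 1). The transcripts share windows of 100 bases as well, 37.0% of those of Slc22a28 and 24.3% of those of Slc22a30 occurring in another gene, mostly in each other, so reads could be split between them.

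Slc22a7 (OAT2), a carrier of nucleotides, prostaglandins and orotate that is not part of that row, lies at chr17:46432185-46438477. It measured 6.81, 5.22 and 4.79 FPKM in laboratory mice 1 to 3 and 9.93, 16.03 and 12.3 FPKM in wild mice 1 to 3. The FPKM ranges did not overlap, and the difference was 0.16 ± 0.19 zFPKM, adjusted p = 0.660. Its sign turned without laboratory mouse 3 (laboratory minus wild 0.026) and in the comparison of males.

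Among the wild mice, 1 of the 27 transporters, Slc22a26, was higher in the females than in the male, against 0.317% of all tested genes, and 0 were lower by limma, against 0.0591%. At an unadjusted p under 0.05, 4 were higher (Slc22a26, Slc22a27, Slc22a29 and Slco1a4), against 10.5% of all genes, and 1 was lower (Slco1a1), against 0.387%. Summed markers of several other cell types were lower in the wild male than in both wild females. Those of Kupffer cells, the macrophages of liver, were 10.9 FPKM in the wild male and 37.6 and 73.6 FPKM in the wild females, those of sinusoidal endothelium 15.2 FPKM in the wild male and 50.7 and 28.7 FPKM in the wild females and those of stellate cells 24.7 FPKM in the wild male and 54.6 and 39.8 FPKM in the wild females. The exocrine pancreas sum was higher, at 17.3 FPKM in the wild male and 4.35 and 2.50 FPKM in the wild females. It was nearly all Cela1, at 17.1 FPKM in the wild male and 4.35 and 2.50 FPKM in the wild females. No other pancreas marker exceeded 0.122 FPKM in a wild mouse. The part of these cell types in the result was not tested. This contrast rests on 1 male and 2 females. Leaving out wild mouse 2 or wild mouse 3 left 0 called, leaving out laboratory mouse 1 or laboratory mouse 2 gave 2 higher and 1 lower in each case, and leaving out laboratory mouse 3 gave 6 higher. Of the regulators examined beside the transporters, Cux2, a repressor known to be more abundant in female liver, was called, and the other 17 were not. Cux2 measured 0.0562, 0.0499 and 0.0903 FPKM in laboratory mice 1 to 3 and 0.0808, 6.10 and 7.79 FPKM in wild mice 1 to 3, and females minus male was 2.70 ± 0.47 zFPKM, adjusted p = 0.0254. Bcl6, a repressor known to be more abundant in male liver, measured 8.60, 10.6 and 15.1 FPKM in laboratory mice 1 to 3 and 2.03, 7.09 and 13.3 FPKM in wild mice 1 to 3, with its lowest value in the wild male, and females minus male was 1.14 ± 0.22 zFPKM, adjusted p = 0.0511.

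**Figure D3:**
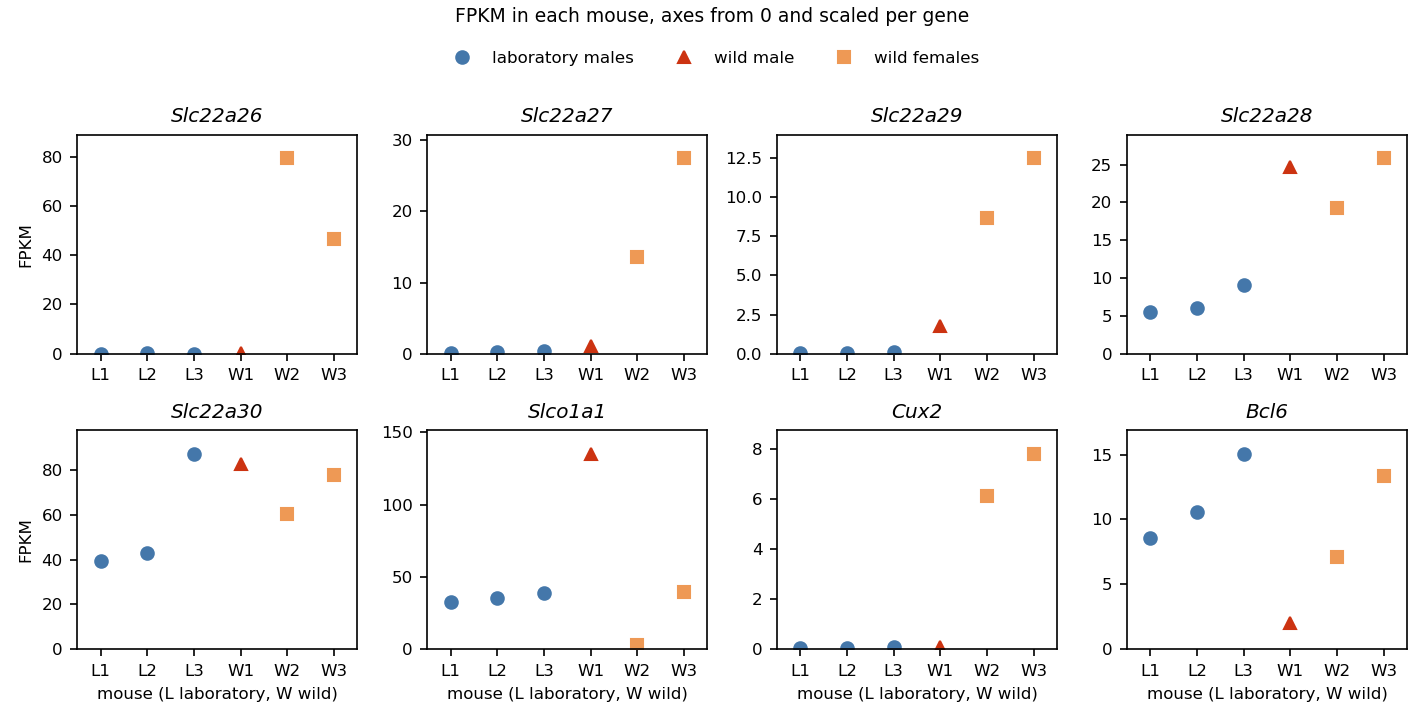
FPKM of 6 transporters and the repressors Cux2 and Bcl6 in each mouse, on axes that start at 0 and are scaled per gene (L1 to L3, laboratory males; W1, wild male; W2 and W3, wild females). Slc22a26, Slc22a27 and Cux2 are high only in W2 and W3, Slc22a28 lies above L1 to L3 in W1 to W3, and Slco1a1 is highest in W1 at 135 FPKM and lowest in W2 at 2.65 FPKM.

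Of the remaining Slc22a genes, Slc22a18 is an imprinted gene encoding a transporter-like protein. Among the Slco and Slc22a genes reported here, Slc22a18 had the highest mean in laboratory liver. It measured 114, 106 and 82.0 FPKM in laboratory mice 1 to 3 and 108, 121 and 115 FPKM in wild mice 1 to 3. The groups overlapped, and the difference of -0.18 ± 0.12 zFPKM, adjusted p = 0.368, turned its sign on log2(FPKM + 0.1) and log2(FPKM + 1). Slc22a23, an orphan member of the family, measured 4.15, 5.54 and 6.25 FPKM in laboratory mice 1 to 3 and 15.5, 13.0 and 15.7 FPKM in wild mice 1 to 3. Its groups did not overlap in FPKM, and the difference was 0.27 ± 0.19 zFPKM, adjusted p = 0.398. Slc22a18 and Slc22a23 lie at chr7:143473726-143499334 and chr13:34179158-34345275.

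The share of each gene in the summed FPKM is given as a description, with no test. Slc22a18 made up 34.3 ± 9.27% of the sum in laboratory mice and 15.4 ± 1.63% in wild mice (SD, n = 3 each). Slco1b2 made up 18.8 ± 3.62% and 35.7 ± 1.26%. The laboratory and wild ranges of both shares did not overlap. Slc22a30 made up 18.4 ± 6.15% and 9.82 ± 1.14%, also without overlap. Slc22a26 was below 0.1% in 4 mice and reached 11.2% and 6.02% in the wild females.

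**Figure D4:**
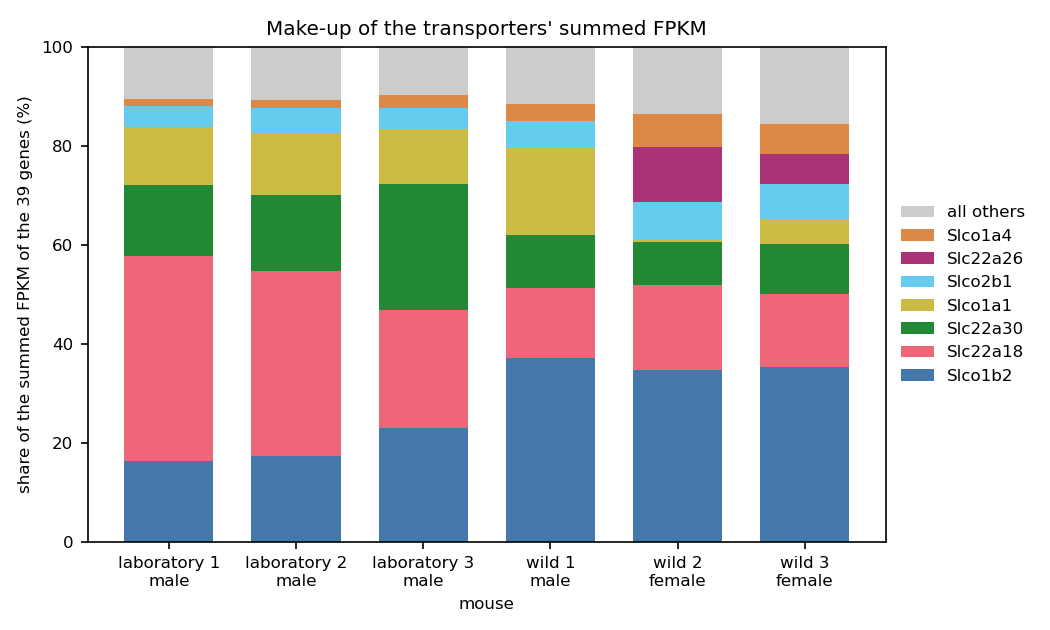
Share of the summed FPKM of the 39 transporters (%) made up by the 7 genes that reach 4% in any mouse, with all others in grey, for each of the 6 mice. Slc22a18 takes the largest share in laboratory mice 1 and 2, and Slco1b2 takes the largest in all wild mice.

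The other 9 tested transporters had means below 1 FPKM in both groups, and none was called. They were Slc22a13, Slc22a17 and Slc22a19, Slc22a15, a carrier of carnitine and zwitterions, Slc22a13b, annotated as a transcribed pseudogene, the cation transporter Slc22a3 described above, and the polypeptides Slco3a1, Slco4a1 and Slco5a1, with values between 0 and 1.13 FPKM. Slc22a17, the lipocalin 2 receptor, measured 0.229, 0.408 and 0.721 FPKM in laboratory mice 1 to 3 and 0.0942, 0.0503 and 0.292 FPKM in wild mice 1 to 3, with groups that overlap in FPKM and a difference of -0.89 ± 0.44 zFPKM, adjusted p = 0.182. Slc22a13b measured 0.170, 0.0377 and 0.184 FPKM in laboratory mice 1 to 3 and 0.0992, 0 and 0.0160 FPKM in wild mice 1 to 3, with a difference of -1.08 ± 0.47 zFPKM, adjusted p = 0.107. Slc22a19 was listed at 0 in all laboratory mice and was tested only through its values in wild mice.

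The 12 transporters not tested were low or absent. Slc22a6 (OAT1), Slc22a16, Slc22a20, Slco6b1, Slco6c1 and Slco6d1 were listed at 0 in every mouse. Slc22a8 (OAT3), Slc22a14, Slc22a22, Slco1a6, Slco1c1, a thyroid hormone carrier of brain, and Slco4c1, a carrier of kidney, did not exceed 0.0588 FPKM in any mouse. Slc22a6 and Slc22a8 are the anion transporters of the kidney proximal tubule.

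Partner transporters and transcriptional regulators were counted from a list of 34 genes, of which 33 were tested. In laboratory mice, 8 were lower and 2 were higher, read against the same 7.28% and 7.17% of all genes. Of 15 tested partners, 6 were lower and 0 higher, and of 18 regulators, 2 were lower and 2 higher. The list's median difference was -0.07 zFPKM, laboratory minus wild. The number lower in laboratory mice was 5 without laboratory mouse 2, 4 without wild mouse 2, 2 without wild mouse 3, 1 without a variance trend and 1 with sex as a covariate. The number higher was 1 without laboratory mouse 1, laboratory mouse 2 or wild mouse 1. Slc10a1, Pdzk1 and Nr1h4 were called whichever mouse was left out. Abcc4 and Rxra were lost without wild mouse 3 alone, Abcc2 without wild mouse 2 or 3, and Abcb1a, Abcc3, Bcl6 and Cux2 each without any of several mice.

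The largest difference among partners was in Abcc4 (MRP4), an efflux pump of the blood-facing membrane, which measured 0.0972, 0.142 and 0.135 FPKM in laboratory mice 1 to 3 and 1.93, 5.72 and 6.43 FPKM in wild mice 1 to 3 and was higher in wild mice by 1.51 ± 0.36 zFPKM, adjusted p = 0.000590. Pdzk1, a scaffold that is known to hold several of these carriers at the membrane, measured 0.932, 2.04 and 1.32 FPKM in laboratory mice 1 to 3 and 27.5, 22.7 and 25.7 FPKM in wild mice 1 to 3, a difference of 1.22 ± 0.21 zFPKM, adjusted p = 2.53e-07. Abcb1a, the P-glycoprotein drug pump, differed by 1.08 ± 0.36 zFPKM, adjusted p = 0.0225, Abcc2 (MRP2), the canalicular pump of bilirubin conjugates, by 0.60 ± 0.16 zFPKM, adjusted p = 0.00375, and Abcc3 (MRP3), a blood-facing pump, by 0.47 ± 0.15 zFPKM, adjusted p = 0.0195. Slc10a1 (NTCP), the sodium-dependent uptake carrier of bile acids, measured 99.5, 161 and 109 FPKM in laboratory mice 1 to 3 and 509.6, 463 and 553 FPKM in wild mice 1 to 3, a difference of 0.47 ± 0.11 zFPKM, adjusted p = 0.000378. All 3 wild mice exceeded all laboratory mice for each of these 6 genes, which were named because they were called. Of all tested genes, 43.7% were lower in every laboratory mouse in FPKM and 14.1% in zFPKM. Abcb11, the bile salt export pump, was not called, at 88.9, 83.3 and 124 FPKM in laboratory mice 1 to 3 and 145, 197 and 174 FPKM in wild mice 1 to 3, a difference of 0.01 ± 0.12 zFPKM, adjusted p = 0.963.

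Among regulators, Cux2 was higher in wild mice by 1.31 ± 0.43 zFPKM, adjusted p = 0.0195. The wild male lay within the laboratory range in FPKM but below every laboratory mouse in zFPKM (-2.28 against -2.23 for laboratory mouse 3). Rxra, the partner of many nuclear receptors, was higher in wild mice by 0.55 ± 0.14 zFPKM, adjusted p = 0.00228. Bcl6 was lower in wild mice, by a wild minus laboratory difference of -0.60 ± 0.19 zFPKM, adjusted p = 0.0188, although the FPKM groups overlapped. Nr1h4 (FXR), the bile acid receptor, measured 52.8, 63.4 and 95.6 FPKM in laboratory mice 1 to 3 and 36.5, 38.6 and 52.0 FPKM in wild mice 1 to 3, a difference of -0.51 ± 0.13 zFPKM, adjusted p = 0.00217. The nuclear receptor Hnf4a and the xenobiotic receptors Nr1i2 (PXR) and Nr1i3 (CAR) were not called, with differences between -0.13 and 0.06 zFPKM.

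**Figure D5:**
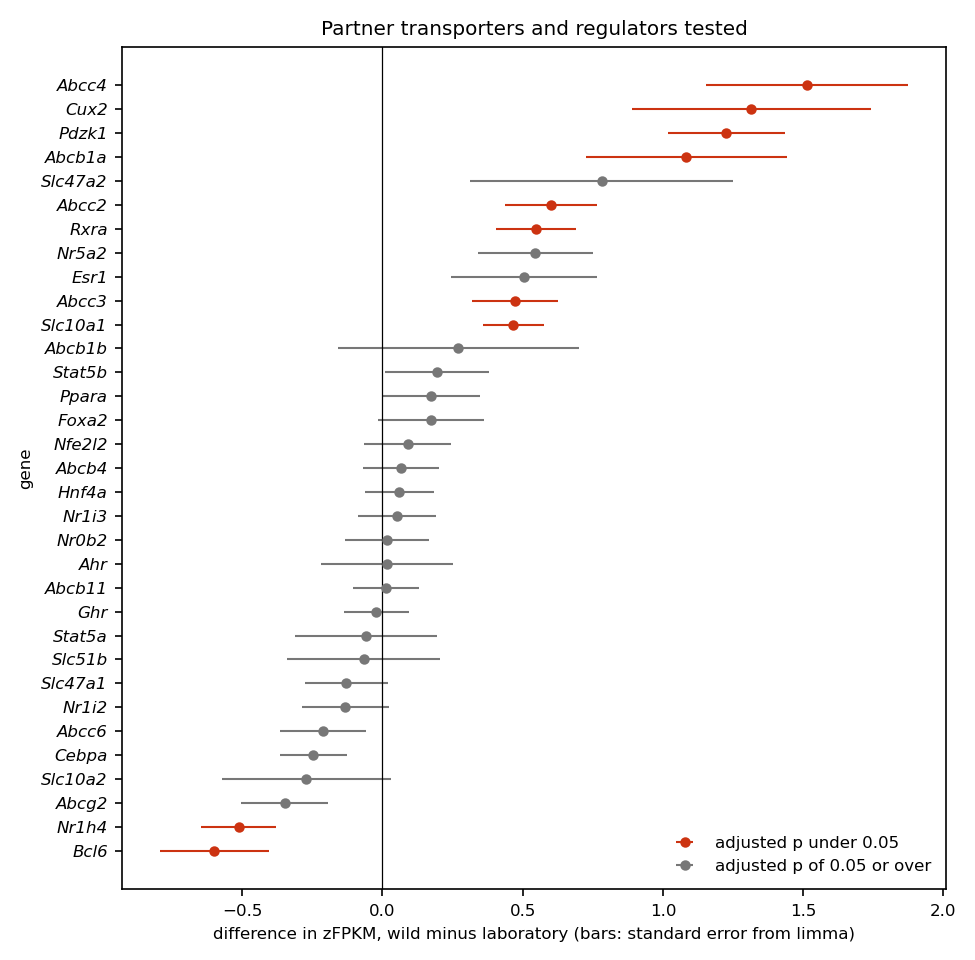
Difference in zFPKM, wild minus laboratory, of 15 partner transporters and 18 regulators (n = 3 mice per group), with the standard error from limma as bars. The 8 genes called as higher in wild mice reach 1.51 for Abcc4, and the 2 called as lower are Nr1h4 at -0.51 and Bcl6 at -0.60.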

How the data were processed

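RNA was extracted from unfixed liver of 3 laboratory and 3 wild mice, and stranded mRNA libraries were sequenced. The authors used kalign for alignment to the masked GRCm38.p6 genome and the Tuxedo tools for FPKM, which correct for transcript length and library size. The zFPKM score, also deposited, was made by the authors with the R package of that name from log2 FPKM by a mode (from 0.491 to 2.51) and SD (from 2.51 to 3.12) particular to the mouse. The files hold no counts, so absolute depth is unknown and no counting floor is given. Relative depth ranged from 0.922 to 1.36. It came from genes taken to hold about 1 read by the deposited confidence bounds, which is an assumption. Bounds were given for 5 mice, and for laboratory mouse 1 the most frequent FPKM ratio of those genes was used instead.

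Among 47256 names that occurred once per mouse, 24 with a failed or missing (HIDATA) estimate were left out. Slc22a12 was left out because it was listed more than once in 5 mice. Values below -3 were set to -3, and genes above -3 in at least 3 of 6 mice were tested by a linear model with moderated variances and a mean-variance trend (limma 3.58.1, R 4.3.3), with Benjamini-Hochberg adjustment over all tested genes. The contrast of wild females with the wild male came from a fit with 3 means. The fit was tested on simulated data. Other steps used Python 3.11.15, numpy 2.4.6, pandas 2.3.3 and matplotlib 3.10.9. The alternatives were log2(FPKM + 0.1), log2(FPKM + 1), a median of 0 per mouse, quantile normalization, a floor of -5, a filter at -2, no filter, no variance trend, sex as a covariate and each mouse left out. Files count starts from 0, so 1 was added, and all 39 positions then match RefSeq. Shared windows of 100 bases were counted in the longest coding GENCODE transcript.

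Transporters were named with the values of all mice where a group mean reached 1 FPKM or either contrast called them, and the others once; partners and regulators were named where called, largest differences first. Genes outside this rule (Bcl6 among wild mice, Abcb11, Hnf4a, Nr1i2, Nr1i3, Slc22a3, Slc22a17, Slc22a13b and Slc22a19) were named after their values were seen. The transporters and lists were chosen with earlier results of these data known. In addition, 1 transporter that the rule finds and 2 genes of the other list are not reported here and enter none of their counts, sums or figures; they stayed in the fit over all genes.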

Additional observations from a re-analysis of the deposited data

How the results depend on the processing

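No paired analysis was possible because the labels give no replicate numbers and the mice of the groups were not matched. Of all tested genes, 7.28% were called lower in laboratory mice in the main analysis. The share was 37.9% on log2(FPKM + 0.1), 20.4% after quantile normalization and 1.89% without a variance trend. The shares called higher were 7.17%, 8.19%, 18.7% and 2.38% in the same order. These shares apply to the counts of both lists below. Of the transporters, 7 were lower and 0 higher in laboratory mice. The lower count was 15 on log2(FPKM + 0.1), 15 on log2(FPKM + 1), 12 after quantile normalization, 0 with no filter, 3 without a variance trend and 2 with sex as a covariate. The higher count was 2 after quantile normalization and 1 (Slc22a17) with a median of 0 in each mouse. With each mouse left out in turn, 4 to 8 were lower (fewest without wild mouse 3) and 0 higher. With no filter 47232 genes entered the fit. The transporters whose groups did not overlap numbered 11 to 17 over all settings run. In zFPKM with all mice, 14.1% of all tested genes were lower and 14.2% higher in every laboratory mouse. In FPKM, where the number was 17, these shares were 43.7% and 12.1%. Of the partners and regulators, the higher count of 2 became 1 on log2(FPKM + 0.1), 0 on log2(FPKM + 1), 1 with a floor of -5, 0 with no filter and 0 without a variance trend, and 1 to 2 with each mouse left out. The lower count of 8 became 19 on log2(FPKM + 0.1), 19 on log2(FPKM + 1), 0 with no filter, 1 without a variance trend and 1 with sex as a covariate, and 2 to 10 with each mouse left out. The 1 transporter higher in wild females than in the wild male became 0 with a median of 0 in each mouse, 0 with a floor of -5, 2 with a filter at -2, 0 with no filter and 0 without a variance trend, and 0 to 6 with a mouse other than the wild male left out, when 0 to 1 were lower. The causes of these changes were not tested.

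Differences, laboratory minus wild, changed sign for 7 transporters, none of them called. On log2(FPKM + 0.1) and log2(FPKM + 1), Slc22a18 (-0.20 and -0.20), Slc22a21 (-0.27 and -0.15) and Slc22a30 (-0.46 and -0.46) turned negative. With sex as a covariate, Slc22a4 came to 0.032, Slc22a7 to 0.14 and Slco1a1 to -0.32. With each mouse left out, Slc22a7 ranged from -0.316 to 0.026, Slco1a1 from -0.084 to 0.750 and Slco2a1 from -0.221 to 0.130. Of the 270 single-gene values computed under alternatives, 213 kept their sign and their side of the threshold, 24 lost and 21 gained a call, and 12 changed sign. The depth of the libraries is unknown, so low values such as those of Slco1a5 carry no counting interval.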
